A study of Mus musculus with 24 samples.

Results

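The 10 genes described here encode signals and receptors of the oxytocin, vasopressin, corticotropin-releasing hormone (CRH), tachykinin and opioid systems. They are Oxtr, Avpr1a, Crh, Crhr1, Crhbp, Tac2, Pdyn, Oprk1, Oprm1 and Oprd1. The genes were chosen by name, with earlier results of these data known, and all 10 were found among the 56750 entries of the count table. Bulk RNA sequencing had been run on medial prefrontal cortex from mice that all carry the genotype label 5xFAD, a strain in which a human APP transgene bearing familial Alzheimer's disease mutations is driven by the neuronal Thy1 promoter. Sample titles gave 6 groups of 4 libraries. SI_Con mice were socially isolated (treatment label SI) and GH_Con mice had the treatment label control. SI_EE and GH_EE mice shared the label EE, the enriched environment of the series title, and SI_WT and GH_WT mice shared the label WT. The sources used here give no meaning for GH or for WT beside a 5xFAD genotype label, and no age or sex of the animals. An entry spelled APP, as the human gene is, was read in all 24 libraries (337 to 4680 CPM, counts scaled to library size), the WT-titled ones included. Whether each library came from a separate mouse is not stated. Read from Xist and the Y-linked genes Ddx3y, Uty, Kdm5d and Eif2s3y, every group held female and male libraries, in uneven shares. No group therefore came from a single mouse. The spread behind every p-value is that between samples, and part of it may be technical. Sex was not in the main fit, and with it as a covariate 0 of 110 values of the 10 genes passed the threshold given below.

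Neuropeptides are cut from larger precursor proteins, stored in dense-core vesicles and released to act on G-protein-coupled receptors, often at some distance. In cortex, interneurons make CRH and the CRH-binding protein, while oxytocin and vasopressin arrive mainly in axons of hypothalamic neurons, so that cortex holds the receptors more than the precursors. Dynorphins, cut from the Pdyn product, act chiefly on the kappa opioid receptor (Oprk1), and enkephalins and endorphin on the delta (Oprd1) and mu (Oprm1) receptors. Neurokinin B, from Tac2 in mice, acts mainly on the receptor Tacr3. Several of these genes are also strongly used in tissue next to or far from prefrontal cortex, such as striatum, habenula and cerebellum.

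Total counts ran from 33683587 to 51274917 per library. The cortical label was met in that the pyramidal neuron gene Slc17a7 was at 584 CPM or more everywhere, but several libraries stood apart. SI_EE 1 held cerebellar transcripts: Gabra6 was at 342 CPM and Pcp2 at 242 CPM there, against at most 1.13 and 2.17 CPM in the other 23 libraries. Genes of thalamus and habenula were high in GH_WT 2 and GH_WT 4, where Gpr151 was at 10.2 and 6.45 CPM, against at most 1.36 CPM in the other libraries. In 4 libraries (GH_Con 2, SI_Con 2, SI_Con 3 and SI_WT 4) long genes were low: Spearman's rho across genes between exon length and deviation from the mean level was -0.352 to -0.245 there and -0.097 to 0.199 in the other 20. Striatal transcripts were present throughout and varied, with Drd1, the dopamine receptor of the direct pathway, at 2.92 to 81.6 CPM. Fewer cells of a type and less RNA per cell cannot be told apart in such bulk samples.

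Set on a scale that allows genes to be compared (CPM per kilobase of exon, median of 24 libraries), the opioid precursor Pdyn was the most abundant of the 10 at 12.9. Crhbp followed at 9.70, Crhr1 at 7.96, Oprd1 at 7.28, Crh at 3.60, Tac2 at 2.85, Oxtr at 0.967, Oprk1 at 0.606, Oprm1 at 0.212 and Avpr1a at 0. All neighbours in this order overlapped in their ranges. Pdyn exceeded Crhbp in 22 of 24 libraries, Crhbp exceeded Crhr1 in 20, Crhr1 exceeded Oprd1 in 18, Oprd1 exceeded Crh in 19, Crh exceeded Tac2 in 17, Oxtr exceeded Oprk1 in 18, Oprk1 exceeded Oprm1 in 22 and Oprm1 exceeded Avpr1a in 20. The step between Tac2 and Oxtr was the clearest, since Tac2 was higher in 24 of 24. The hormones Oxt and Avp were close to absent, at no more than 0.607 and 0.875 CPM in any library. Among the other opioid genes on the per-kilobase scale, the enkephalin precursor Penk had a median of 114 and the nociceptin receptor Oprl1 one of 9.01.

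**Figure D1:**
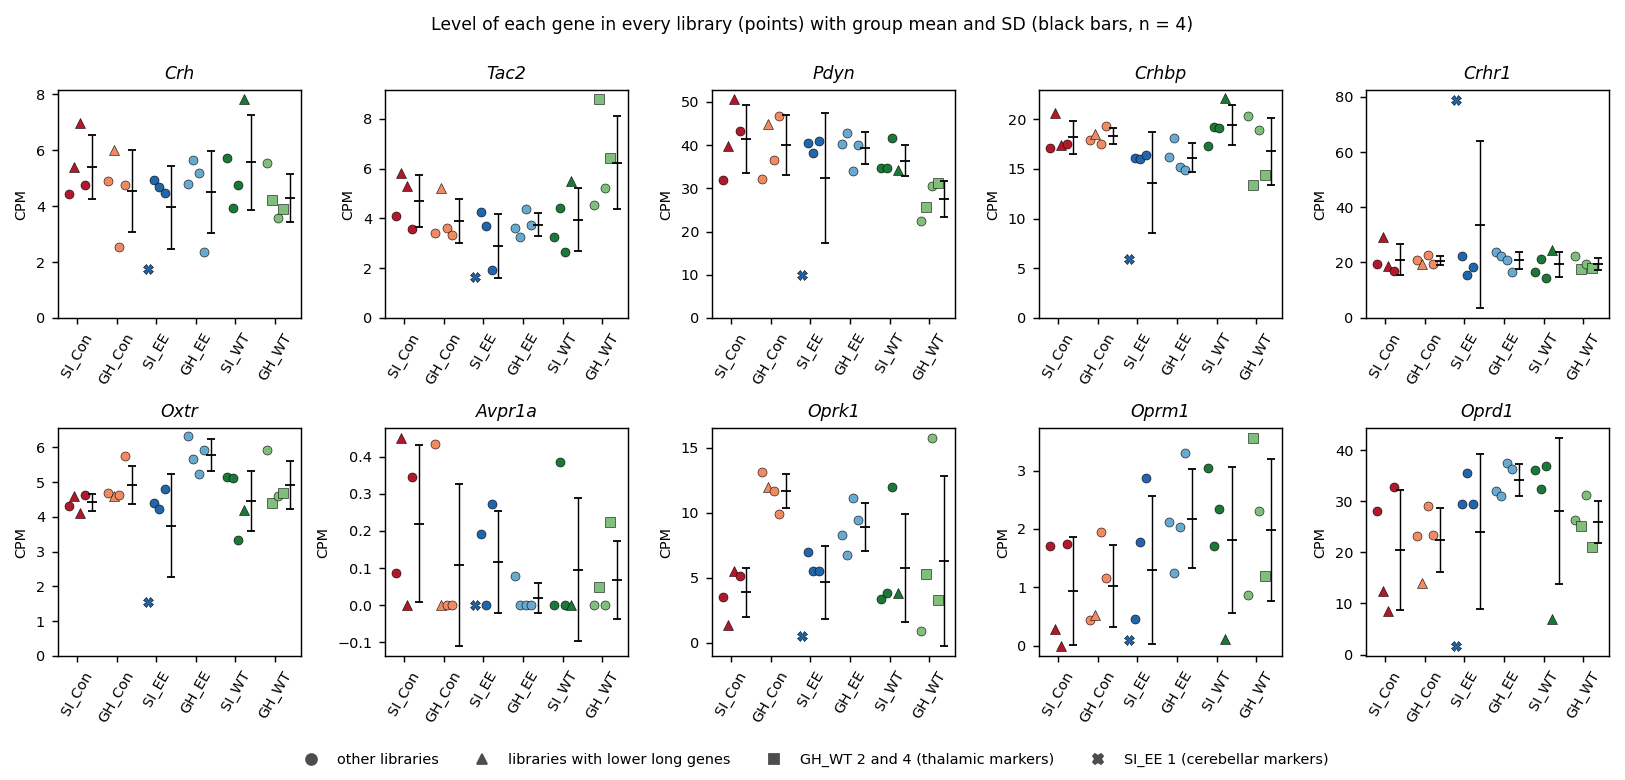
Level in CPM (vertical axes from 0 or just below) of the 10 genes in each of the 24 libraries, grouped on the horizontal axes, with the mean and SD of each group (n = 4) as black bars. SI_EE 1 (cross) is the lowest point for Pdyn at 9.86 CPM and the highest for Crhr1 at 78.7 CPM, and Oprk1 lies at 1.40 to 5.53 CPM in SI_Con, against 9.90 to 13.1 CPM in GH_Con.

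None of the 10 genes passed the threshold (Benjamini-Hochberg adjusted p under 0.05 over 20354 genes, edgeR's quasi-likelihood test) in any of 11 comparisons, which makes 0 of 110 values. The smallest adjusted p among them was 0.326, and 8 of 110 had an unadjusted p under 0.05. DESeq2 called 0 of 110 as well, with 10 at an unadjusted p under 0.05. Few genes of any kind passed in edgeR. The share of all tested genes called was 0.00491% in SI_EE against GH_EE and in GH_EE against GH_Con, and 0% in the other 9 comparisons. The results below are therefore levels and differences with their intervals. Comparisons that share a group of libraries, such as those against GH_Con, are not independent of each other.

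Among the precursor genes, Pdyn (GRCm38 chromosome 2, 129686565 to 129699844, minus strand) had 31.9, 39.7, 50.7 and 43.3 CPM in SI_Con, against 32.1, 45.0, 36.6 and 46.8 CPM in GH_Con. In SI_EE its values were 9.86, 40.5, 38.1 and 41.0 CPM, and in GH_EE they were 40.2, 42.8, 34.1 and 40.1 CPM. These 4 groups overlapped, and outside SI_EE 1 all of their libraries held 31.9 CPM or more. In SI_WT Pdyn had 34.8, 34.8, 41.7 and 34.2 CPM, against 22.5, 25.6, 30.5 and 31.3 CPM in GH_WT. GH_WT was the low group: all 4 of its libraries lay below all 4 of SI_WT and also below all 4 of GH_Con. Relative to GH_WT, SI_WT was higher by 0.41 on the log2 scale (SE 0.27, adjusted p = 0.949 by edgeR), and GH_WT was at -0.55 relative to GH_Con (SE 0.27, adjusted p = 1 by edgeR). Such a separation of groups was seen in 1.36% of all genes for SI_WT above GH_WT and in 2.02% for GH_WT below GH_Con.

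The striatal marker list was low in 3 of the 4 GH_WT libraries. Its 12 genes, all tested and all with a lower fitted mean in GH_WT than in GH_Con, summed to 849 to 1450 CPM in SI_WT, 376 to 1800 CPM in GH_WT and 1230 to 1480 CPM in GH_Con. Ido1 was the only one at 0 in a library, SI_EE 1. With the mean of that list as a covariate, Pdyn was at -0.15 in GH_WT relative to GH_Con (SE 0.20) and at 0.10 in SI_WT relative to GH_WT (SE 0.19). Across the 24 libraries Pdyn and the list mean had a Pearson's r of 0.81 (permutation p = 0.00018, adjusted 0.0024) and a Spearman's rho of 0.37 (permutation p = 0.0773, adjusted 0.31). The relation rested on SI_EE 1 and GH_WT 1, the libraries farthest from the median of the list, since r was 0.31 without them.

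Crh, the peptide that starts the hormonal stress response in hypothalamus, overlapped in every pair of groups compared. It averaged 5.39 ± 1.14 CPM in SI_Con and 4.54 ± 1.46 CPM in GH_Con, 3.96 ± 1.49 CPM in SI_EE and 4.50 ± 1.47 CPM in GH_EE, and 5.56 ± 1.69 CPM in SI_WT and 4.30 ± 0.858 CPM in GH_WT (SD, n = 4 each). Averaged over the 3 arms, isolated minus GH mice differed by 0.14 on the log2 scale (95% interval -0.24 to 0.52, edgeR). The gene is short, with 1320 bases of exon. In the 4 libraries with low long genes Crh had 5.41 to 7.84 CPM, against 2.36 to 5.71 CPM in the 19 libraries left when SI_EE 1 (1.74 CPM) is also set aside.

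Tac2, the neurokinin B precursor (chromosome 10, 127724478 to 127731768, plus strand), had 4.11, 5.81, 5.30 and 3.56 CPM in SI_Con, against 3.40, 5.21, 3.63 and 3.33 CPM in GH_Con. SI_EE libraries had 1.66, 4.25, 3.70 and 1.91 CPM, against 3.63, 3.24, 4.37 and 3.74 CPM in GH_EE. The low pair in SI_EE lay below every other library of the series. SI_WT libraries had 3.26, 4.41, 2.65 and 5.50 CPM, against 4.54, 8.80, 5.23 and 6.42 CPM in GH_WT, where replicates 2 and 4 were the highest of all 24. Of the 8 values with an unadjusted p under 0.05, 4 belonged to this gene, and in each of them the groups overlapped or the value was an interaction. These were -0.70 for SI_EE relative to SI_Con (SE 0.29, adjusted p = 0.326), -0.66 for SI_WT relative to GH_WT (SE 0.29, adjusted p = 0.878), 0.68 for GH_WT relative to GH_Con (SE 0.29, adjusted p = 1) and -0.93 for the WT arm by housing interaction (SE 0.41, adjusted p = 1), all by edgeR.

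GH_WT 2 and GH_WT 4, the pair with the most Tac2, were also the libraries with the most thalamus and habenula transcripts. The 8 genes of that list, all tested, summed to 34.2 to 329 CPM in GH_WT, against 27.6 to 37.1 CPM in SI_WT and 31.6 to 39.6 CPM in GH_Con, and Gbx2 and Lhx9 were at 0 in some libraries. All 8 had an unadjusted p under 0.05 in SI_WT relative to GH_WT and in GH_WT relative to GH_Con, and none passed the threshold. Those libraries and SI_EE 1 were then left out, which kept only GH_WT 1 and GH_WT 3 in their group. Tac2 was at -0.31 in SI_WT relative to GH_WT (SE 0.31) and at 0.33 in GH_WT relative to GH_Con (SE 0.31) in that fit. Because GH_WT 2 and GH_WT 4 had the most Tac2, leaving them out had to bring both differences nearer 0. The part of thalamus and habenula tissue in these differences was not tested. In the same fit the difference of SI_EE relative to SI_Con was -0.51 (SE 0.28). It was -0.42 (SE 0.33) with the libraries of low long genes left out. Tac2 was 5.21 to 5.81 CPM in the 4 libraries with low long genes, against 1.91 to 5.23 CPM in the 17 libraries that carry none of these features. The receptor Tacr3 had a median of 2.17 CPM and ranged over 0.79 to 3.32 CPM.

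Crhbp, a secreted protein that binds CRH and limits its action, averaged 18.1 ± 1.63 CPM in SI_Con and 18.3 ± 0.774 CPM in GH_Con, and 19.4 ± 1.96 CPM in SI_WT and 16.8 ± 3.38 CPM in GH_WT (SD, n = 4 each). Averaged over the arms, isolated minus GH mice differed by -0.01 on the log2 scale, with a 95% interval of -0.26 to 0.24 (edgeR). In the enriched arm SI_EE had 5.95, 16.1, 16.0 and 16.4 CPM, against 17.1, 20.6, 17.4 and 17.5 CPM in SI_Con, so that all of SI_EE lay below all of SI_Con, as it did for 2.40% of all genes. The difference was -0.42 (SE 0.21, adjusted p = 0.418 by edgeR) and shrank to -0.16 (SE 0.13) without SI_EE 1. In GH_EE the gene was at 16.1 ± 1.43 CPM, overlapping GH_Con.

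Crhr1, the main CRH receptor of cortex and also a gene of cerebellum (chromosome 11, 104132855 to 104175523, plus strand), was set apart by a single library. SI_EE had 78.7, 22.5, 15.4 and 18.3 CPM, against 23.6, 22.3, 20.7 and 16.5 CPM in GH_EE. The first of these, SI_EE 1, is the library with cerebellar transcripts, and the other 23 libraries held 14.3 to 29.1 CPM. The 7 tested genes of the cerebellar list summed to 927 to 5280 CPM in SI_EE and 1140 to 1220 CPM in GH_EE. Outside SI_EE 1 these sums are mostly Itpr1, which had a median of 1090 CPM over all libraries. The mean of the 7 genes was 9.32 log2 CPM in SI_EE 1, against 0.37 to 2.93 in the other 23 libraries. Crhr1 in SI_EE relative to GH_EE was at 0.70 on the log2 scale (SE 0.35, adjusted p = 0.587 by edgeR), and at -0.15 (SE 0.19) without SI_EE 1, so the direction turned. Relative to SI_Con the corresponding values were 0.68 (SE 0.35) and -0.15 (SE 0.19). SI_Con averaged 21.0 ± 5.50 CPM and GH_Con 20.6 ± 1.52 CPM, and SI_WT averaged 19.2 ± 4.64 CPM and GH_WT 19.4 ± 2.04 CPM (SD, n = 4 each).

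Oxtr, the receptor through which oxytocin acts on social behaviour in rodents (chromosome 6, 112473683 to 112489943, minus strand), had 4.31, 4.60, 4.11 and 4.63 CPM in SI_Con, against 4.68, 4.60, 4.64 and 5.74 CPM in GH_Con. In SI_EE it had 1.54, 4.41, 4.23 and 4.81 CPM, against 6.31, 5.66, 5.22 and 5.92 CPM in GH_EE. The EE groups did not overlap, with every SI_EE library below every GH_EE library, a separation shown in that direction by 2.01% of all genes. SI_WT had 5.13, 5.12, 3.34 and 4.20 CPM, against 5.92, 4.40, 4.60 and 4.69 CPM in GH_WT, with overlap. The log2 difference was -0.63 in SI_EE relative to GH_EE (SE 0.23, 95% interval -1.11 to -0.14, unadjusted p = 0.0138, adjusted p = 0.493 by edgeR) and -0.37 without SI_EE 1. It was -0.16 in SI_Con relative to GH_Con (SE 0.23) and -0.14 in SI_WT relative to GH_WT (SE 0.23). Averaged over the arms it was -0.31 (SE 0.13, 95% interval -0.59 to -0.03, unadjusted p = 0.0326, adjusted p = 0.563 by edgeR), where 2 of the 10 genes had an unadjusted p under 0.05, beside 8.61% of all genes. The housing difference under EE was not shown to differ from that without it, since the EE by housing interaction was -0.47 (95% interval -1.15 to 0.21).

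Avpr1a, a vasopressin receptor tied to social recognition in rodents, was at the edge of detection. Reads were found in 10 of 24 libraries, with 17 at most, and levels ran from 0 to 0.449 CPM. A count of 0 was found in 14 libraries, which allows up to 0.0599 to 0.0884 CPM (3 counts per library, counting error only). An antisense gene, Gm48877, overlaps it, and the use of strand in counting is not stated. Group differences had intervals too wide to be read: averaged over the arms, isolated minus GH mice were at 1.25 on the log2 scale (95% interval -0.82 to 3.32, edgeR).

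Oprk1, the kappa receptor on which dynorphins act (chromosome 1, 5588466 to 5606131, plus strand), had 3.53, 1.40, 5.53 and 5.12 CPM in SI_Con, against 13.1, 12, 11.7 and 9.90 CPM in GH_Con. The groups did not overlap, and the nearest libraries of SI_Con and GH_Con were at 5.53 and 9.90 CPM. Of all genes, 2.61% lay entirely below in this way. SI_EE had 0.529, 6.95, 5.56 and 5.52 CPM, against 8.30, 6.77, 11.1 and 9.43 CPM in GH_EE, which overlapped only through 6.95 and 6.77 CPM. SI_WT had 3.38, 3.83, 12 and 3.85 CPM, against 0.903, 5.30, 15.7 and 3.32 CPM in GH_WT, the most scattered pair of groups. Replicate 3 was far above the rest in both.

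The log2 difference in Oprk1 was -1.58 in SI_Con relative to GH_Con (SE 0.67, 95% interval -2.98 to -0.19, unadjusted p = 0.0281, adjusted p = 0.686 by edgeR). It was -0.94 in SI_EE relative to GH_EE (SE 0.66), and -0.57 (SE 0.62) without SI_EE 1. In SI_WT relative to GH_WT it was -0.12 (SE 0.66), with a direction that turned on single libraries, from -0.77 without SI_WT 3 to 0.87 without GH_WT 3. Averaged over the arms it was -0.88 (SE 0.38, unadjusted p = 0.0309, adjusted p = 0.559 by edgeR). In SI_Con relative to GH_Con, 1 of 10 genes, Oprk1, had an unadjusted p under 0.05, beside 6.53% of all genes. The direction in that comparison was the same under all alternatives tried. The values with every other group left out of the fit were -1.58 (SE 0.35, unadjusted p = 0.00127, adjusted p = 0.622), and with the libraries of low long genes left out -1.41 (SE 0.93, unadjusted p = 0.148).

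Oprk1 moved with the striatal marker list. The 12 striatal genes summed to 733 to 1260 CPM in SI_Con and 1230 to 1480 CPM in GH_Con, and all 12 had a lower fitted mean in SI_Con, while none passed the threshold. Library by library, Oprk1 and the list mean had a Pearson's r of 0.87 (n = 24, permutation p = 1e-05, the smallest that 100000 resamples can give, adjusted 0.0002 over 40 relations) and a Spearman's rho of 0.70 (permutation p = 0.00028, adjusted 0.0056). Without SI_EE 1 and GH_WT 1, the libraries farthest from the median of the list, r was 0.68. Taken on deviations from the group means, so that group differences play no part, r was 0.89. Both Oprk1 and the list were low in GH_WT 1 (0.903 CPM and a list mean of 3.31 log2 CPM) and high in GH_WT 3 (15.7 CPM and 6.33 log2 CPM). With the list mean as a covariate, Oprk1 was at -1.04 in SI_Con relative to GH_Con (SE 0.35, unadjusted p = 0.00718, adjusted p = 0.406 by edgeR).

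**Figure D2:**
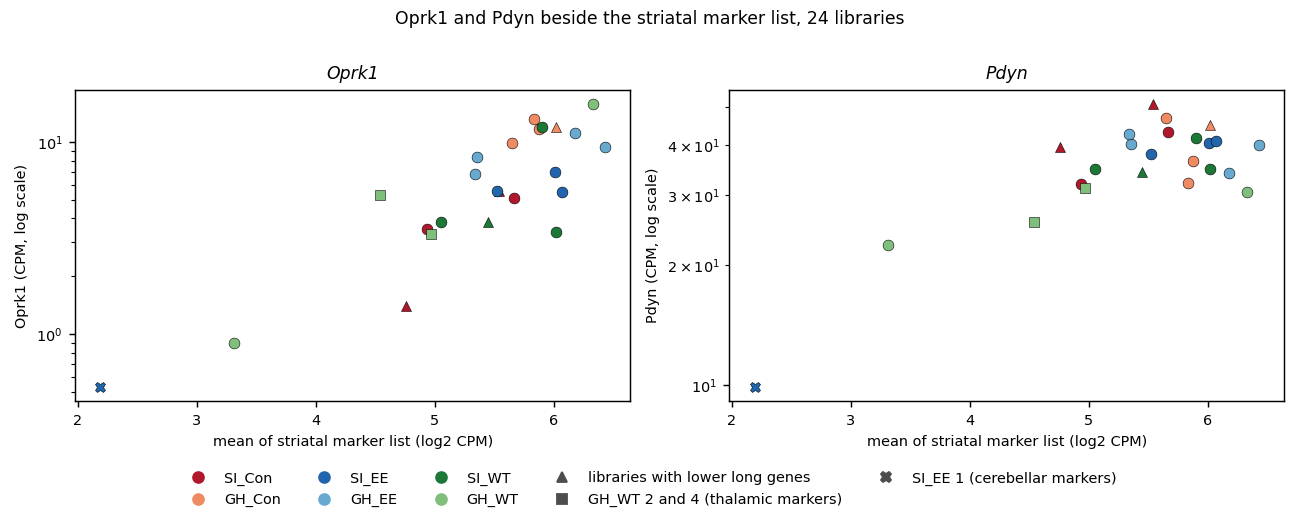
Level of Oprk1 (left) and Pdyn (right) in CPM on a log scale, against the mean log2 CPM of 12 striatal marker genes, 1 point per library, coloured by group. Oprk1 follows the list over the whole range, while the relation of Pdyn rests on SI_EE 1 and GH_WT 1. The text gives r of both genes with all libraries and without those.

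Oprd1, the delta receptor (chromosome 4, 132110726 to 132144486, minus strand), had 28.0, 12.4, 8.51 and 32.8 CPM in SI_Con, against 23.1, 14, 29.1 and 23.3 CPM in GH_Con. SI_EE had 1.74, 29.4, 35.5 and 29.4 CPM, against 32.0, 31.1, 37.4 and 36.2 CPM in GH_EE. The GH_EE libraries lay above all GH_Con libraries, as 4.50% of all genes did, with a log2 difference of 0.61 (SE 0.58, 95% interval -0.59 to 1.81, adjusted p = 0.911 by edgeR). SI_WT had 36.1, 32.4, 36.8 and 6.98 CPM, against 26.3, 25.2, 31.2 and 21.1 CPM in GH_WT. The 5 lowest values of all came from SI_EE 1 or from the 4 libraries with low long genes (6.98 to 14 CPM), and the other 19 libraries held 21.1 to 37.4 CPM. Because the libraries fell into these separate clusters, no correlation over all 24 is given. Within the 19, Oprd1 and the pyramidal neuron list had r of 0.66 (permutation p = 0.00216, adjusted 0.0432) and rho of 0.55 (permutation p = 0.0166, adjusted 0.247), and r was 0.43 without GH_Con 1 and GH_WT 4, the libraries farthest from the median of the list.

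Oprm1, the mu receptor, was low. Its values were 1.70, 0.291, 0 and 1.75 CPM in SI_Con, against 0.435, 0.532, 1.95 and 1.16 CPM in GH_Con. It averaged 1.30 ± 1.27 CPM in SI_EE and 2.18 ± 0.850 CPM in GH_EE, and 1.80 ± 1.25 CPM in SI_WT and 1.98 ± 1.21 CPM in GH_WT (SD, n = 4 each). All pairs of groups compared overlapped. In the 4 libraries with low long genes it was at 0 to 0.532 CPM and in SI_EE 1 at 0.101 CPM, against 0.435 to 3.55 CPM in the other 19, so the ranges overlapped. Within those 19 its r with the pyramidal list was 0.36 (permutation p = 0.126, adjusted 0.457) and its rho 0.28 (permutation p = 0.238, adjusted 0.784). The gene spans chromosome 10 from 6758506 to 7038198 (GRCm38, plus strand) and overlaps Gm10945 and Ipcef1 on the other strand, whose reads cannot be told apart from its own without strand. The part of the low long genes in the levels of Oprd1 and Oprm1 was not tested beyond leaving those libraries out, which put Oprd1 at 0.44 (SE 0.53) in GH_EE relative to GH_Con.

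**Figure D3:**
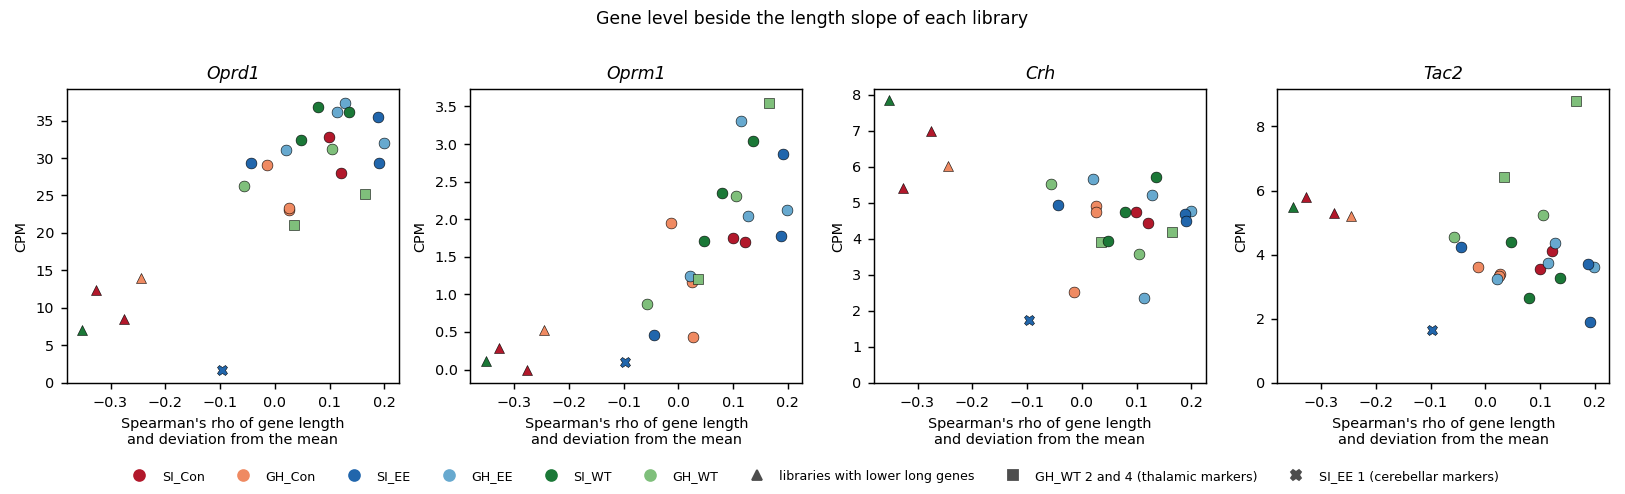
CPM of Oprd1, Oprm1, Crh and Tac2 in each library, against Spearman's rho across genes between exon length and the library's deviation from the mean level (a negative rho means that long genes are low). The 4 libraries with rho of -0.245 or less (triangles) have 6.98 to 14 CPM of Oprd1 and 5.41 to 7.84 CPM of Crh.

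Isolation without treatment, the SI_Con against GH_Con comparison, left 5 of the 10 genes with a positive and 5 with a negative log2 difference, a median of 0.01 beside 0.001 over all genes. In SI_EE relative to GH_EE, 8 of 10 were negative with a median of -0.33 (all genes 0.019), against 6 of 10 and a median of -0.14 without SI_EE 1. In that comparison 1 gene, Oxtr, had an unadjusted p under 0.05, beside 8.70% of all genes, and SI_EE 1 was the lowest library of the series for 7 of the 10. In SI_WT relative to GH_WT the split was 5 and 5, with a median of 0.06 (all genes -0.003), and 1 gene, Tac2, had an unadjusted p under 0.05, beside 5.37% of all genes. The intervals in the plot of isolation differences were narrowest for Oxtr and Crhbp and widest for Oprm1 and Oprk1.

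**Figure D4:**
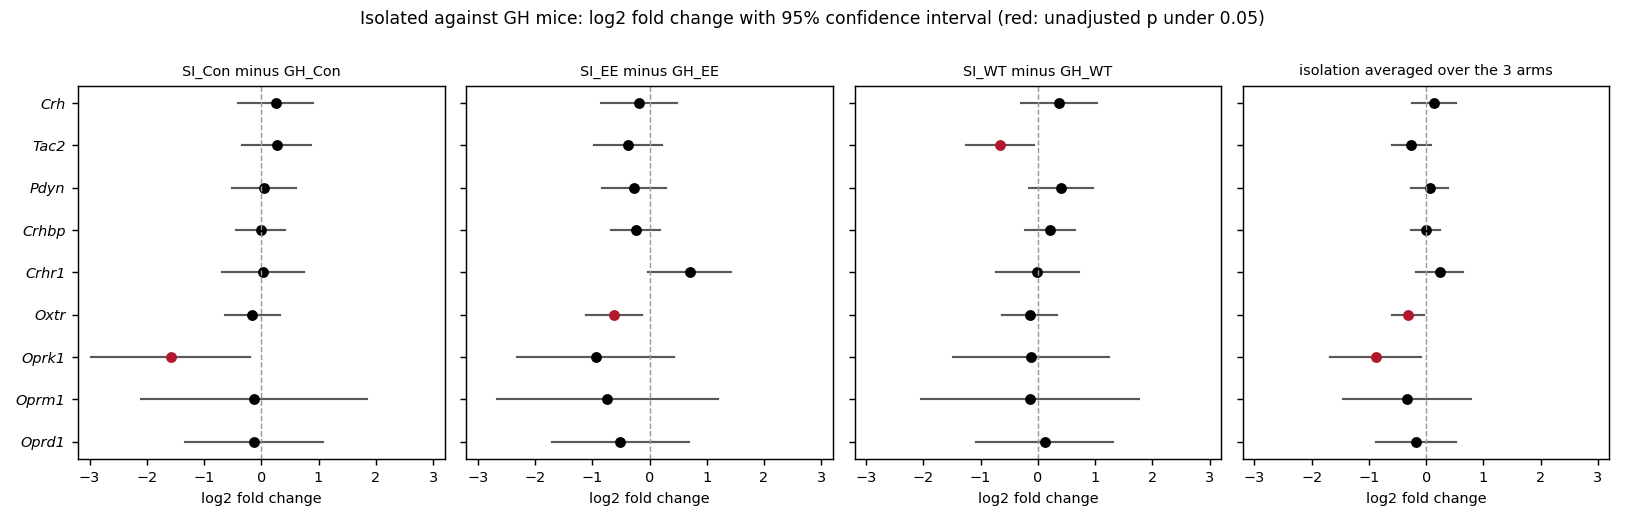
Log2 fold change with its 95% confidence interval (edgeR) for 9 genes in isolated relative to GH mice, within Con, EE and WT arms and averaged over them (Avpr1a is left out for its width). Red points have an unadjusted p under 0.05, such as Oprk1 at -1.58 in SI_Con relative to GH_Con, and no point passed the adjusted threshold.

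The EE and WT arms were also set against Con. In GH_EE relative to GH_Con 4 genes were positive and 6 negative (median -0.02), with none at an unadjusted p under 0.05, beside 6.32% of all genes. In SI_EE relative to SI_Con 4 were positive and 6 negative (median -0.30, and -0.10 without SI_EE 1) and 1, Tac2, had an unadjusted p under 0.05, beside 12.6% of all genes. In SI_WT relative to SI_Con none did, beside 3.84% of all genes. In GH_WT relative to GH_Con 1 did, again Tac2, beside 3.42% of all genes. No gene of the 10 had an unadjusted p under 0.05 for EE averaged over both housings (11.5% of all genes did) or for the EE by housing interaction (7.74%), and 1, Tac2, did for the WT arm by housing interaction (4.52%). Averaged over both housings, EE minus Con was 0.00 for Oxtr (95% interval -0.32 to 0.32, edgeR), -0.30 for Crhbp (-0.61 to 0.01) and -0.38 for Tac2 (-0.80 to 0.05). Without SI_EE 1 these were 0.14 for Oxtr, -0.17 for Crhbp and -0.28 for Tac2.

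**Figure D5:**
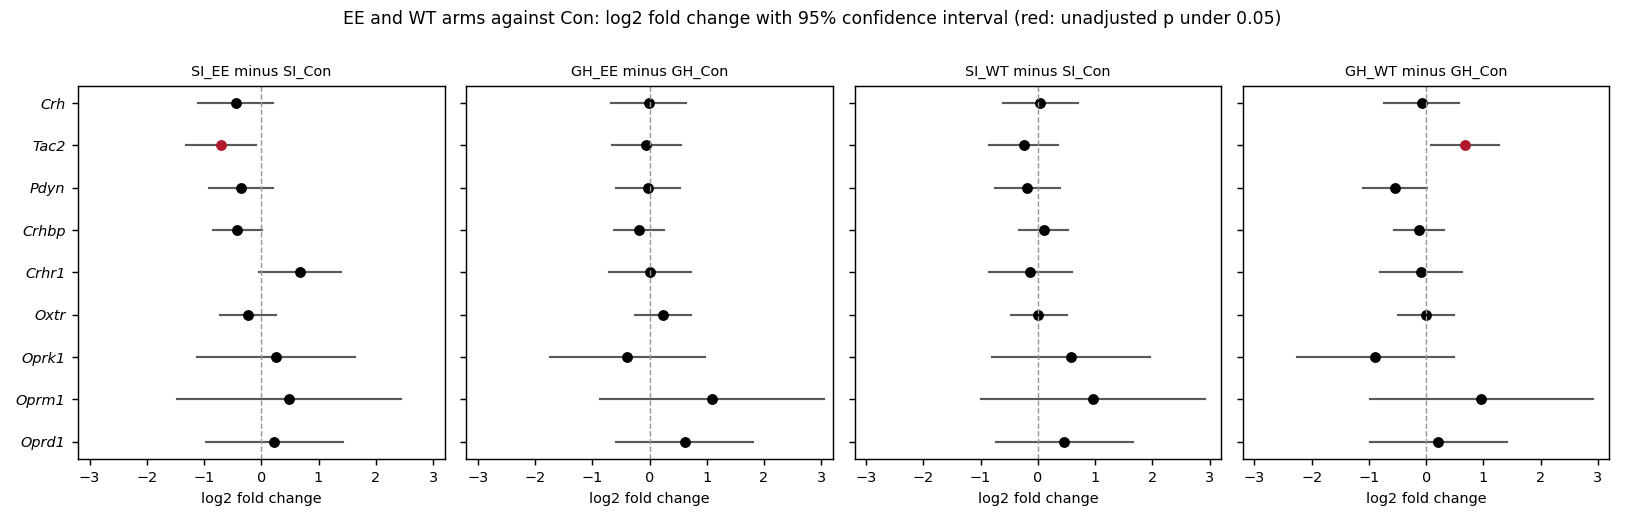
Log2 fold change with its 95% confidence interval (edgeR) for the same 9 genes in the EE and WT arms relative to Con, in isolated and in GH mice. Tac2 is the red point (unadjusted p under 0.05) at -0.70 in SI_EE relative to SI_Con and at 0.68 in GH_WT relative to GH_Con, and Crhr1 at 0.68 in SI_EE relative to SI_Con rests on SI_EE 1.

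The wider peptide systems were read from 7 lists of 65 genes, of which 58 were tested: precursors and receptors of the 4 systems, further neuropeptides such as Sst and Npy, their receptors, and the enzymes and granins that process and store peptides. In the 11 comparisons, edgeR called 0 of 638 values of these genes, with 46 at an unadjusted p under 0.05. Of all genes, 3.42% to 12.6% per comparison had an unadjusted p under 0.05 by edgeR. DESeq2 called 2 of the 638, with 51 at an unadjusted p under 0.05. Both DESeq2 calls were Pomc, the endorphin precursor, in SI_EE relative to SI_Con and in the EE by housing interaction. DESeq2 called 173 and 29 genes of any kind in these comparisons. In SI_Con relative to GH_Con 33 were higher and 25 lower in fitted mean, with 0 and 4 at an unadjusted p under 0.05 by edgeR. Of all genes, 6.53% had such a p in either direction. In SI_EE relative to GH_EE 18 were higher and 40 lower, with 2 and 1 (8.70% of all genes). SI_EE 1 was the lowest library of the series for many of these genes, among them Sst, Npy, Vip, Cck and Cckbr. It was the highest for others, such as Pomc, Vipr2 and Chgb. The split without SI_EE 1 was not taken, so it cannot be read as a difference between the groups at large. In SI_WT relative to GH_WT 26 were higher and 32 lower, with 0 and 3 (5.37% of all genes). In the CRH system the second receptor, Crhr2, was at no more than 1.47 CPM, and the urocortin gene Ucn at no more than 0.109 CPM.

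For most of the 10 genes, the 3 others closest to each in log2 CPM over the 24 libraries were noted, as a description over libraries that share their dissection. For Oprk1 these were Chat (r of 0.90), the enzyme that makes acetylcholine, Adora2a (0.89), an adenosine receptor, and Adcy5 (0.88), an adenylyl cyclase, and without SI_EE 1 Chat (0.85) and Adcy5 (0.83) stayed among the 3, with Syndig1l (0.83). For Tac2 the closest was Ccn3 (0.82, and 0.76 without SI_EE 1). For Pdyn they included Cpne5 (0.89) and Tiam2 (0.88), while without SI_EE 1 they were Ptpn22 (0.76), Penk (0.72) and Sntg2 (0.72). None are given for Oprd1 and Oprm1, for which the libraries were split into clusters above. For Crhr1 they were Hpcal1 (0.93), Itm2b (0.92) and Calb1 (0.90), and none of these remained without SI_EE 1, where Olfm1 (0.81) came first. Oxtr was closest to Nrsn1, Zfp292 and Ncs1 (0.91 each), Crhbp to Basp1, Psrc1 and Syt5 (0.95 each) and Crh to Rtkn, Dok5 and Stmn1 (0.79 each). Without SI_EE 1 none of these remained for Crhbp, where Fam131a (0.82) came first, or for Crh, where Ccdc174 (0.77) did, and for Oxtr Nrsn1 (0.70) came after Tmco3 (0.83).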

How the data were processed

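Total RNA from medial prefrontal cortex was sequenced on the Illumina platform, per the labels' protocols. As deposited, the table gives raw counts of reads for each gene, which the values show to be whole numbers that the authors had not scaled. The build is mm10, per the submitters' processing notes. An aligner, a counting tool and an annotation release were not given in the sources used here, nor was the strand setting. Of 56750 entries, 91.8% were paired with a symbol through the reference tables, and the others hold 0.695% of reads. The number of unused count columns was 0. Positions and exon lengths are from GENCODE M21 (GRCm38, the assembly of mm10).

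Counts were tested with edgeR 4.0.16 in R 4.3.3 (quasi-likelihood test, TMM factors, filterByExpr on the group, robust fit, all 24 libraries in 1 fit, no covariate), which kept 20354 genes. The threshold was a Benjamini-Hochberg adjusted p under 0.05 over these genes. CPM was taken on totals scaled by TMM (log2 CPM with prior count 2). The test was checked on simulated data. Marker relations used Pearson's r and Spearman's rho with two-sided permutation tests (100000 resamples), adjusted over 40 relations. No 2 libraries held identical values. Alternatives were DESeq2 1.42.0, other factors and filters, covariates, a replicate block and left-out libraries. The members and lists were chosen with earlier results of these data known. The named genes were the 10 members, list genes past the threshold, peptides and receptors that pair with a member, the 3 closest genes by r and markers that move with a member.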

Additional observations from a re-analysis of the deposited data

Results flagged for a closer look

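In each group of 4 libraries the highest and the lowest value of each gene were compared with the nearest other value, and a value was singled out when that gap took more of the group's range than Dixon's 95% critical value for 4 values. This singled out 13 of 60 sets of a gene and a group. The rule would single out about 1 in 20 sets of independent normal values, which these are not. A library enters the sets of all 10 genes, and an Avpr1a group with reads in only 1 library is always singled out. Of the 13, 4 were SI_EE 1, the library with cerebellar transcripts: Crhr1 was high there at 78.7 CPM, while Crh (1.74 CPM), Crhbp (5.95 CPM) and Pdyn (9.86 CPM) were low. The part of that tissue in these values was not tested.

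SI_WT 3 was high for Oprk1 at 12 CPM and for Pdyn at 41.7 CPM. SI_WT 4, a library with low long genes, was low for Oprd1 at 6.98 CPM. GH_Con 2 and SI_Con 2, also among the libraries with low long genes, were high for Tac2 (5.21 CPM) and for Crhbp (20.6 CPM). Oxtr was high in GH_Con 4 at 5.74 CPM. Avpr1a was at 0.435 CPM in GH_Con 1, 0.0796 CPM in GH_EE 1 and 0.385 CPM in SI_WT 2, each time the only library of its group with reads.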

How the results depend on the processing

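No alternative called any of the 10 genes: 0 of 3583 refitted values passed. Of the 110 values, 52 changed sign in at least 1 alternative. Oprk1 in SI_Con relative to GH_Con stayed negative in all alternatives run, at -1.79 to -1.30 when 1 library was left out and -1.04 with the striatal covariate, and its adjusted p ran from 0.406 to 1. Oxtr in SI_EE relative to GH_EE ran from -0.77 to -0.37. Of the 40 marker relations, 8 passed an adjusted permutation p of 0.05, against 17 on deviations from group means, 3 without SI_EE 1 and 3 with the 4 libraries of low long genes also left out. These last were chosen after the data were seen, as were the deviations, and the cause was not tested. Deviations sum to 0 within each group but were permuted over all libraries. Their p-values may therefore be too small, and the 17 cannot be set against the 8.

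Over all genes DESeq2 called more than edgeR: 38 in SI_Con relative to GH_Con (edgeR 0), 22 in SI_EE relative to GH_EE (edgeR 1), 12 in SI_WT relative to GH_WT (0), 8 for isolation averaged over the arms (0), 173 in SI_EE relative to SI_Con (0), 26 in GH_EE relative to GH_Con (1), 120 for EE averaged over housings (0), 10 in GH_WT relative to GH_Con (0), 2 in SI_WT relative to SI_Con (0), 29 for the EE by housing interaction (0) and 0 for the WT arm interaction (0). Leaving out SI_EE 2 gave 91 calls in SI_EE relative to SI_Con. Same-numbered libraries of different groups had a mean correlation of deviations of -0.02 over 60 pairs, against 0.007 over 180 differently numbered pairs. Of 24 libraries, 4 correlated best with their own number. No pairing by number was seen, but a weak one could be hidden by the libraries that stood apart. With a replicate block 0 of 110 values passed and 11 had an unadjusted p under 0.05 by edgeR, against 8 without it. With 4 libraries a group, intervals for Oprk1, Oprm1 and Avpr1a are too wide to show small differences.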

Other observations

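Pomc, the precursor of endorphin and of the pituitary hormone ACTH, is no member of the 10 genes and was chosen after its values were seen. It had 3.73, 0.953, 1.98 and 1.28 CPM in SI_EE, against 0.875, 0.721, 0.341 and 0.413 CPM in GH_EE. The log2 difference was 1.75 (SE 0.45, adjusted p = 0.392 by edgeR and 0.0661 by DESeq2), and 1.25 (SE 0.43) with the libraries of cerebellar or thalamic markers left out. In SI_Con relative to GH_Con it was at -1.0 (SE 0.45, adjusted p = 0.724 by edgeR), and the EE by housing interaction was 2.75 (SE 0.63, adjusted p = 0.46 by edgeR and 0.0222 by DESeq2). In SI_EE relative to SI_Con it was at 1.70 (SE 0.45, adjusted p = 0.178 by edgeR and 0.03 by DESeq2). Without SI_EE 1 the interaction was 2.26 (SE 0.59) and the difference from SI_Con 1.21 (SE 0.43) by edgeR. In a list of hypothalamic genes, Hcrt and Pmch were at no more than 0.106 and 0.158 CPM in any library. Others of the list went both ways in SI_EE 1. Hdc was highest there at 4.89 CPM (at most 2.51 CPM elsewhere) and Cartpt lowest at 0.983 CPM. The mean of the tested genes of the list was -0.09 to 0.78 log2 CPM in SI_EE, -0.92 to 0.75 in GH_EE and -0.47 to 0.71 in SI_Con. The part of hypothalamic tissue in the Pomc values was not tested. Oprl1, also no member of the 10 genes and picked after its values were seen, averaged 25.2 CPM in SI_EE and 40.6 CPM in SI_Con. All of SI_EE lay below all of SI_Con, as it did for 2.40% of all genes. The log2 difference was -0.69 (SE 0.28, adjusted p = 0.326 by edgeR). SI_EE 3 was lower than SI_EE 1 for this gene, and the difference without SI_EE 1 was not taken.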
